A study of Mus musculus with 24 samples.

Results

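The genes described here are Lcn2 and 9 further genes of the acute phase response, measured in mouse heart after a stroke of the brain. They were chosen by name: a row was taken when its gene symbol in the platform annotation was Lcn2, Saa3, Serpina3n, Hp, Timp1, Osmr, Stat3, Cebpb, Cebpd or Socs3. All 10 had 1 row each, among 24011 named genes tested. Hearts came from C57BL/6J mice aged 8 weeks, a wild-type inbred strain with no transgene. One set of animals had the middle cerebral artery occluded (MCAO), which causes an ischemic stroke, and age-matched controls had a sham operation. Hearts were taken at 24 h or 72 h, which gave 4 groups of 6 arrays: sham 24 h, MCAO 24 h, sham 72 h and MCAO 72 h. The labels do not say that each array is a separate animal. The p-values therefore rest on the spread between arrays, which may be technical. Whole hearts were profiled, so a change in the number of cells of a type and a change in RNA per cell cannot be told apart.

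The acute phase response is the systemic reaction to injury, infection and surgery. Cytokines of the IL-6 family bind receptors that signal through JAK kinases to the transcription factor STAT3, while IL-1 and TNF act through NF-kB. The C/EBP factors beta and delta take part in both, and SOCS3 shuts the STAT3 arm off. The best known output is the liver's secretion of plasma proteins, but heart cells also make several of them.

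Lcn2 rose at both times. Its level was 9.75 ± 0.78 in sham 24 h and 11.21 ± 0.99 in MCAO 24 h (log2, mean ± SD, n = 6 each), a 2.74-fold difference. At 72 h it was 8.00 ± 0.59 in sham and 11.08 ± 0.71 in MCAO hearts (n = 6 each), an 8.45-fold difference. Serpina3n and Osmr also rose at 24 h, and the other 7 genes did not pass the test at either time. Genes were tested with limma over all named genes, with Benjamini-Hochberg adjustment and a threshold of 0.05.

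At 24 h, 3 of the 10 genes were called higher and 0 lower, against 11.1% of all genes called higher and 10.8% called lower (21.8% in all). At 72 h, 1 of the 10 was called higher and 0 lower, against 1.17% and 1.19% of all genes (2.35% in all). The median log2 change of the 10 genes was 0.33 at 24 h and 0.23 at 72 h, beside 0.01 and 0.00 over all genes. At 24 h 7 of the 10 log2 changes were positive, and at 72 h 9 were. Replicates 5 and 6 of MCAO 24 h correlated least with the rest of their group; without them 3 of the 10 genes were again called at 24 h (Lcn2, Osmr and Cebpd) and 2 at 72 h (Lcn2 and Osmr). The heart label was borne out by Myh6, the atrial and adult ventricular myosin heavy chain gene, whose group means lay between 12.5 and 12.9. The plot of array values shows each gene in its 4 groups.

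**Figure D1:**
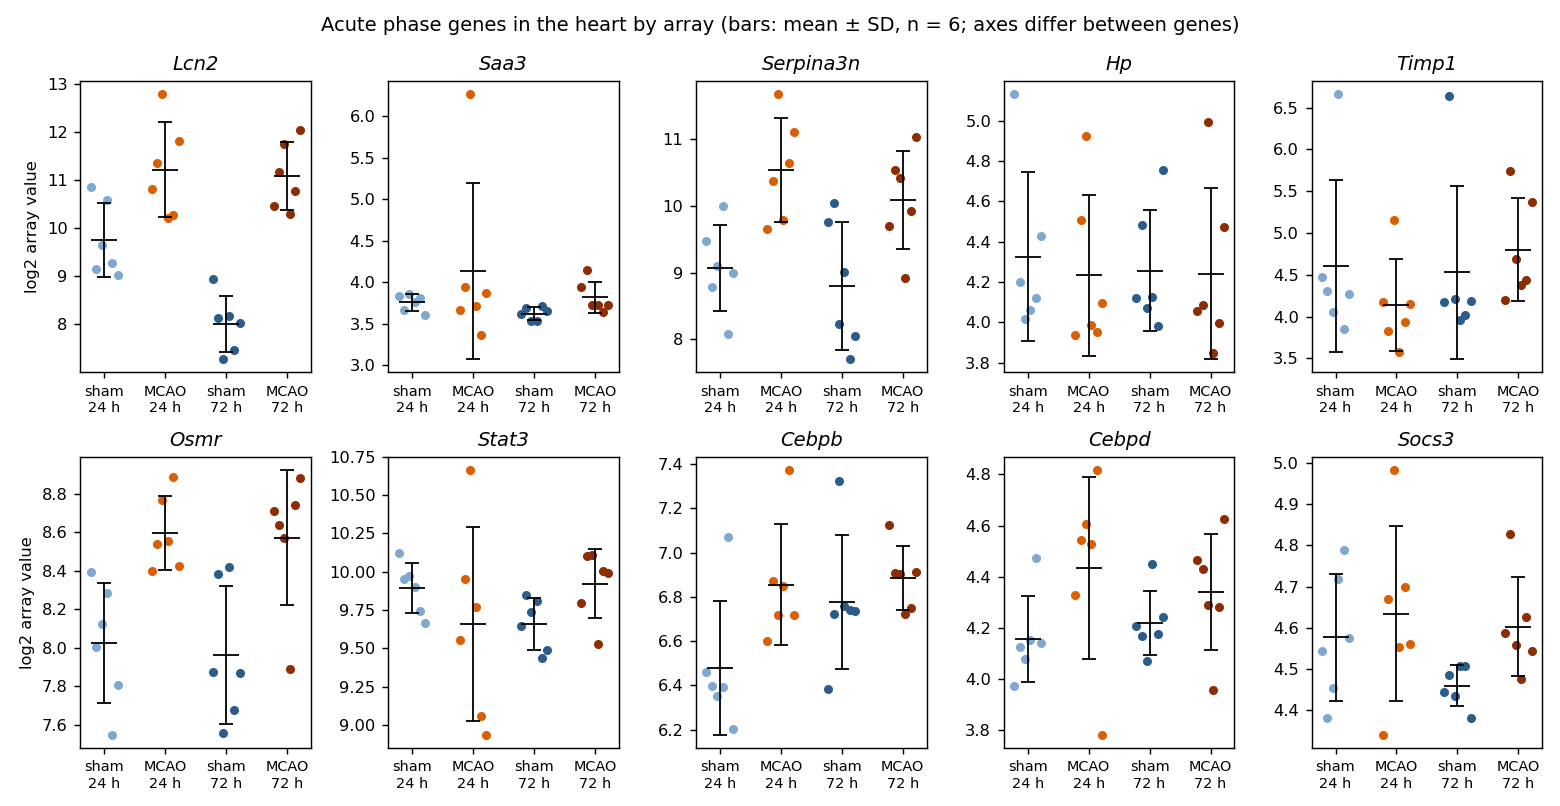
Log2 array value of each of the 10 genes (vertical axis, own scale per gene) in the 4 groups (horizontal axis). Points are arrays, and bars give the mean ± SD of 6 arrays. Lcn2 in sham 72 h lies between 7.28 and 8.93, below every array of the other 3 groups.

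The stretch before the start of Lcn2 and of Serpina3n is shown first, because these are the 2 genes with the largest changes. Sequences are those of RefSeq on GRCm38.p6, read along the gene from 5′ to 3′. The array files name no build. The Lcn2 stretch is chr2:32387740-32387989 on the minus strand, the 250 bases before the start site. The Serpina3n stretch is chr12:104406458-104406645 on the plus strand, the 188 bases of its window that lie outside the annotated gene. Capitals mark matches on either strand to 4 short patterns: TTCNNNGAA (STAT), TTGCNNAA (C/EBP), GGAANNNCC (NF-kB) and ACANNNTGT (glucocorticoid receptor).
Lcn2: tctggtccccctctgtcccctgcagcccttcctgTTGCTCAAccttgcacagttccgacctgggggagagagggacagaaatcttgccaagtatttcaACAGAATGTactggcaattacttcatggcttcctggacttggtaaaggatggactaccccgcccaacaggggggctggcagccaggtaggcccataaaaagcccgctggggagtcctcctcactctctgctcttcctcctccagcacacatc
Serpina3n: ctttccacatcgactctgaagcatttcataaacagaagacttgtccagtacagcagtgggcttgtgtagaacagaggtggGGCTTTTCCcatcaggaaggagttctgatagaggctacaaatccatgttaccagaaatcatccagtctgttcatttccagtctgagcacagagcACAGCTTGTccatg

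In the Lcn2 stretch the capitals are TTGCTCAA, a C/EBP pattern match from 216 to 209 bases before the start site, and ACAGAATGT, a glucocorticoid receptor pattern match from 152 to 144. In the Serpina3n stretch they are GGCTTTTCC, the reverse complement of the NF-kB pattern, from 170 to 162, and ACAGCTTGT, a glucocorticoid receptor pattern match from 76 to 68. The promoter table held 8 of the 10 genes: Lcn2, Saa3, Serpina3n, Timp1, Osmr, Stat3, Cebpb and Socs3. Over their 250-base windows the glucocorticoid receptor pattern was found in 2 of 8 (Lcn2 and Serpina3n) and in 5.83% of 32851 promoters. The C/EBP pattern was found in 2 of 8 (Lcn2 and Saa3) and in 9.56% of all. The NF-kB pattern was found in 3 of 8 (Saa3, Serpina3n and Stat3) and in 15.7% of all. The STAT pattern was found in 1 of 8, Socs3, and in 7.02% of all. There the match was TTCTTAGAA, from 154 to 146 bases before the start site. These are matches of letters, not binding sites. Of the 8 windows, those of Saa3, Osmr and Socs3 lie wholly inside the outermost annotated bounds of the gene, because the table starts from an inner transcript start.

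Among the secreted acute phase proteins, Lcn2 (Entrez Gene 16819; GRCm38.p6 chr2:32384637-32387739) encodes lipocalin 2, a small protein that binds bacterial siderophores and so withholds iron. In sham 24 h its lowest, median and highest array values were 9.02, 9.46 and 10.85 (log2). In MCAO 24 h they were 10.21, 11.09 and 12.78. The 24 h groups overlapped: the sham arrays 1 (10.85) and 4 (10.58) lay above the lowest MCAO arrays. All 6 MCAO arrays lay above the sham mean. The log2 change was 1.46 (SE 0.42, limma adjusted p = 0.0156).

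That call at 24 h did not hold in every setting. With only the 12 arrays of this time the change was the same and its adjusted p was 0.0585. With array weights, which give less weight to noisier arrays, the log2 change was 1.53 with an adjusted p of 0.0529, and 0 of the 10 genes were called.

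At 72 h the lowest, median and highest Lcn2 values were 7.28, 8.08 and 8.93 in sham and 10.28, 10.97 and 12.04 in MCAO hearts. The groups did not overlap, which held for 3.54% of all genes at this time. The log2 change was 3.08 (SE 0.42, 95% interval 2.22 to 3.94, limma adjusted p = 0.000129), and it ranked 29th of 24011 genes by p. Leaving out single arrays moved it between 2.89 and 3.26, with a highest adjusted p of 0.000598.

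The Lcn2 levels had the order sham 72 h, sham 24 h, MCAO 72 h, MCAO 24 h. The 2 MCAO groups differed by 0.13 (SE 0.42, limma adjusted p = 0.874), so they were not separated beyond their spread. The 2 sham groups did not overlap, which held for 0.433% of all genes: the lowest sham 24 h array (9.02) lay above the highest sham 72 h array (8.93). Sham 72 h was lower than sham 24 h by 3.37-fold (log2 change -1.75, SE 0.42). The unadjusted p was 0.000339, rank 21 of all genes, and the adjusted p over all genes was 0.374. In that comparison limma called 0 of the 10 genes and 0.0208% of all genes. An unadjusted p under 0.05 was reached by 1 of the 10, Lcn2, and by 885 of all 24011 genes. MCAO 72 h was 1.33 above sham 24 h (SE 0.42, adjusted p = 0.0923).

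The MCAO effect on Lcn2 was larger at 72 h than at 24 h by 1.62 (log2, SE 0.59, unadjusted p = 0.0114). That difference did not pass the test over all genes (limma adjusted p = 0.147). In the test of the difference, 0 of the 10 genes and 1.79% of all genes were called. An unadjusted p under 0.05 was reached by 1 of the 10, Lcn2, and by 4233 of all 24011 genes. Between the MCAO groups, limma also called 0 of the 10 genes against 10.4% of all genes. There 0 of the 10 had an unadjusted p under 0.05, against 6415 of all 24011 genes.

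Serpina3n (Entrez Gene 20716; GRCm38.p6 chr12:104406646-104414334) encodes a secreted serine protease inhibitor related to human alpha-1-antichymotrypsin. Its lowest, median and highest values were 8.08, 9.04 and 9.998 in sham 24 h and 9.65, 10.51 and 11.68 in MCAO 24 h (log2). The groups overlapped, because sham array 4 lay above MCAO arrays 1 and 4, and all 6 MCAO arrays lay above the sham mean. The change was 2.77-fold (log2 change 1.47, SE 0.42, limma adjusted p = 0.0161). It missed the threshold when arrays were weighted (adjusted p = 0.114), and also when MCAO 24 h replicates 5 and 6 were dropped (adjusted p = 0.0541).

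At 72 h the Serpina3n values were 7.70, 8.62 and 10.05 in sham and 8.92, 10.18 and 11.04 in MCAO hearts. The sham 72 h arrays covered a 5.09-fold range, from replicate 5 (7.70) to replicate 2 (10.05), so the groups overlapped. All 6 MCAO arrays lay above the sham mean. The log2 change of 1.29 (SE 0.42, 95% interval 0.41 to 2.17) did not pass the test (limma adjusted p = 0.134), although it passed with array weights (adjusted p = 0.0259). The effects at the 2 times differed by -0.18 (SE 0.60, adjusted p = 0.907).

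**Figure D2:**
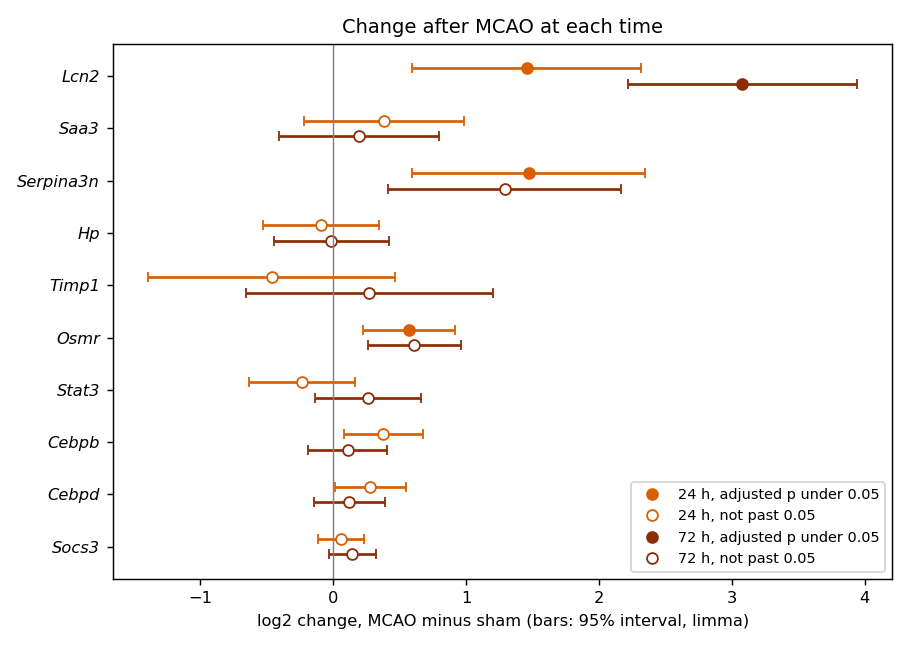
Log2 change of each gene after MCAO at 24 h and 72 h (horizontal axis) with the 95% interval from limma; filled points have an adjusted p under 0.05. Lcn2 at 72 h, at 3.08, has the only interval that lies wholly above 2.

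Saa3, Hp and Timp1 behaved otherwise. Saa3 encodes the serum amyloid A form that is made outside the liver. Its values spanned 3.60 to 3.86 in sham 24 h, 3.53 to 3.72 in sham 72 h and 3.65 to 4.14 in MCAO 72 h (log2). In MCAO 24 h, 5 arrays lay between 3.37 and 3.95 and replicate 3 lay at 6.26. The means of sham 24 h (3.76), sham 72 h (3.62) and MCAO 72 h (3.82) were below 3.96, a rough mark of low values explained below. The MCAO 24 h mean of 4.14 includes replicate 3. Whether a change in Saa3 RNA would show at so low a level was not tested. The log2 change of Saa3 was 0.38 at 24 h (SE 0.29, limma adjusted p = 0.371), and -0.04 without replicate 3. At 72 h it was 0.19 (SE 0.29, adjusted p = 0.997).

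Hp encodes haptoglobin, which captures free haemoglobin. Its 4 group means lay between 4.23 and 4.33 (log2, SD 0.30 to 0.42, n = 6 each). Its log2 change was -0.09 at 24 h (95% interval -0.53 to 0.34) and -0.01 at 72 h (95% interval -0.45 to 0.42). Each group held 1 or 2 arrays above the rest, such as sham 24 h replicate 1 at 5.13 and MCAO 72 h replicate 3 at 4.995.

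Timp1 encodes an inhibitor of matrix metalloproteinases that is induced by IL-6 family cytokines. Its group means were 4.60 ± 1.03 in sham 24 h, 4.14 ± 0.55 in MCAO 24 h, 4.53 ± 1.04 in sham 72 h and 4.80 ± 0.61 in MCAO 72 h (log2, n = 6 each). The 2 highest of all arrays were sham ones, sham 24 h replicate 4 at 6.66 and sham 72 h replicate 2 at 6.64. The log2 change was -0.46 at 24 h (95% interval -1.39 to 0.46, limma adjusted p = 0.491) and 0.27 at 72 h (95% interval -0.66 to 1.20, adjusted p = 1). Single arrays moved both values: the 24 h change was -0.05 without sham 24 h replicate 4, and the 72 h change was 0.69 without sham 72 h replicate 2 and 0.08 without MCAO 72 h replicate 2.

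Osmr (Entrez Gene 18414) encodes the oncostatin M receptor, which pairs with gp130 and by which cardiomyocytes respond to oncostatin M. Its lowest, median and highest values were 7.55, 8.06 and 8.40 in sham 24 h and 8.40, 8.55 and 8.89 in MCAO 24 h (log2). The groups did not overlap, but the lowest MCAO array (8.402) exceeded the highest sham array (8.396) only slightly. Non-overlap held for 5.53% of all genes at 24 h. Osmr rose 1.48-fold (log2 change 0.57, SE 0.17, limma adjusted p = 0.0190) in 6 of 6 arrays. The call was lost with array weights (adjusted p = 0.126) and without sham 24 h replicate 5 (adjusted p = 0.0522).

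At 72 h Osmr was 7.56, 7.87 and 8.42 in sham and 7.89, 8.67 and 8.88 in MCAO hearts (lowest, median and highest). MCAO 72 h replicate 4, at 7.89, was the 1 MCAO array below the sham mean. The log2 change of 0.61 (SE 0.17, 95% interval 0.26 to 0.96) missed the threshold (limma adjusted p = 0.0570). It passed in 4 of 10 other settings and when any of 6 arrays was left out, for example without that replicate (0.75, adjusted p = 0.00791). The 2 effects differed by 0.04 (SE 0.24, adjusted p = 0.950).

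The transcription factors changed less. Stat3, the main effector of IL-6 signalling, was 9.89 ± 0.16 in sham 24 h and 9.66 ± 0.63 in MCAO 24 h, and 9.66 ± 0.17 in sham 72 h and 9.92 ± 0.22 in MCAO 72 h (log2, n = 6 each). The MCAO 24 h arrays spread from 8.94 (replicate 6) and 9.06 (replicate 5) to 10.66 (replicate 3). The log2 change was -0.23 at 24 h (SE 0.19, limma adjusted p = 0.411) and 0.26 at 72 h (SE 0.19, adjusted p = 0.812). Without MCAO 24 h replicates 5 and 6 the 24 h value was 0.10 (log2), and without replicate 3 it was -0.44 and passed (adjusted p = 0.0438).

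Cebpb, the factor once named NF-IL6, had a log2 change of 0.38 at 24 h (SE 0.14, limma adjusted p = 0.0651), with 6 of 6 MCAO arrays above the sham mean. Without sham 24 h replicate 5, the highest of its group at 7.07, it was 0.49 and passed (adjusted p = 0.0114). At 72 h the change was 0.11 (SE 0.14, adjusted p = 0.990). Cebpd, which acute phase signals induce quickly, changed by 0.28 at 24 h (SE 0.13, adjusted p = 0.129) and 0.12 at 72 h (SE 0.13, adjusted p = 0.946). Without MCAO 24 h replicate 6, its lowest array at 3.78, the 24 h change was 0.41 and passed (adjusted p = 0.00676).

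Socs3, the feedback inhibitor that STAT3 induces, stayed within narrow limits. Its 4 group means lay between 4.46 and 4.63 (log2, SD 0.05 to 0.21, n = 6 each). The log2 change was 0.06 at 24 h (95% interval -0.12 to 0.23) and 0.14 at 72 h (95% interval -0.03 to 0.32), where all 6 MCAO arrays lay above the sham mean. Neither passed (limma adjusted p = 0.662 and 0.647). When the 4 groups were put in order of level, no 2 neighbouring groups differed past the threshold in any of the 10 genes. The smallest adjusted p among those neighbours was 0.0855, for Osmr between sham 24 h and MCAO 72 h.

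Arrays of one group differed from each other in several of these genes together. In MCAO 24 h, replicate 3 had the highest value of 7 of the 10 genes (Lcn2, Saa3, Serpina3n, Hp, Timp1, Stat3 and Socs3). In MCAO 72 h, replicate 4 had the lowest value of 8 of the 10, all but Saa3 and Timp1. How often these arrays were the extreme of their group over all genes was not counted. An array that deviated in many genes therefore cannot be told apart from one that deviated in these genes. Sorted values were identical in 23 of the 24 arrays, so this concerns the order of genes within an array, not its level as a whole. Deviations from the group mean, over 24 arrays, correlated with Lcn2 most strongly for Serpina3n (Pearson r = 0.772, permutation p = 1e-05, the smallest that 100000 permutations within groups can give; Spearman rho = 0.740, permutation p = 0.00017). Adjusted over the 9 relations computed, the first p was 9e-05. Within the single groups r was 0.812 in MCAO 24 h, 0.916 in MCAO 72 h, 0.758 in sham 24 h and 0.738 in sham 72 h. Without the 2 arrays of most extreme Lcn2, MCAO 24 h replicate 3 and sham 24 h replicate 1, r was 0.752.

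**Figure D3:**
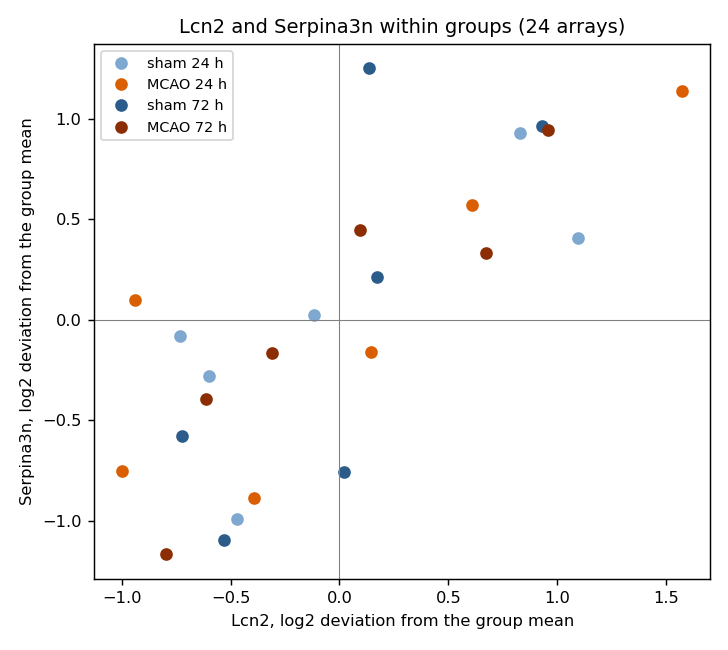
Deviation of each array from its group mean (log2) for Lcn2 (horizontal axis) and Serpina3n (vertical axis), coloured by group, 24 arrays. The points rise together with r = 0.772.

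The relation of Lcn2 was computed with each of the 9 other genes. Hp followed (r = 0.637, rho = 0.604, permutation p = 0.00231 and 0.00512, the first 0.0104 after adjustment over 9), but r was 0.447 without those 2 arrays. Timp1 (r = 0.493, rho = 0.512) and Osmr (r = 0.458, rho = 0.479) had permutation p-values of 0.0124 and 0.0232 for r, or 0.0363 and 0.0417 after adjustment. Without the 2 arrays their r was 0.474 and 0.392. For Saa3 r went from 0.550 to 0.311 and for Stat3 from 0.506 to 0.243 when they were left out, so these 2 relations rested largely on them. The permutation p of r was 0.0161 for Saa3 and 0.0434 for Stat3, or 0.0363 and 0.0652 after adjustment. Cebpb (r = -0.358, permutation p = 0.113), Cebpd (r = -0.051, permutation p = 0.858) and Socs3 (r = 0.343, permutation p = 0.186) did not pass. In a limma fit with the Lcn2 deviation as a covariate, adjusted over 24010 genes, 0 genes passed (0%) and 1710 had an unadjusted p under 0.05. Serpina3n had an adjusted p of 0.113 there. It passed when arrays were weighted (0.0493), when both of the MCAO 24 h replicates 5 and 6 were dropped (0.0305), and when sham 72 h replicate 2 (0.0306) or MCAO 24 h replicate 5 (0.0420) was.

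Of all 24010 other genes Serpina3n had the highest r with Lcn2 within groups. Predicted genes and unnamed transcripts being left out, the next 4 genes were at ranks 2, 3, 5 and 6: Fhad1 (r = 0.748), Prg4 (0.741), which encodes the joint lubricant lubricin, Serpinb5 (0.726) and Anxa1 (0.722), which encodes the anti-inflammatory protein annexin A1. They were picked for their r, so no test is given. None of these 4 passed in the MCAO comparisons: Prg4 changed by 0.26 at 24 h (limma adjusted p = 0.694) and 0.70 at 72 h (adjusted p = 0.656), and Anxa1 by -0.15 and -0.09. The group means of Fhad1 (3.79 to 3.93) and Serpinb5 (3.17 to 3.20) all lay below 3.96, the rough mark of low values explained below. Whether values that low follow the RNA was not tested.

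Other acute phase plasma proteins were read from a list of 25 genes, 23 of them measured. Counts of this and the later lists are to be read beside the shares over all genes. At 24 h limma called 21.8% of all genes (11.1% higher, 10.8% lower), and at 72 h 2.35% (1.17% higher, 1.19% lower). An unadjusted p under 0.05 was reached by 8320 of all 24011 genes at 24 h and by 2627 at 72 h. At 24 h 5 rose and 1 fell, with a median log2 change of 0.10, and at 72 h 2 rose and 0 fell, with a median of 0.00. The metallothionein genes Mt1 (0.66 at 24 h, SE 0.10, and 0.47 at 72 h, SE 0.10) and Mt2 (1.36, SE 0.21, and 0.94, SE 0.21) rose at both times; they bind zinc and are also glucocorticoid targets. Lbp, which encodes a lipopolysaccharide-binding protein, rose at 24 h (0.76, SE 0.13) and was at 0.38 at 72 h (SE 0.13, limma adjusted p = 0.143). Orm2, an orosomucoid, fell at 24 h (-0.40, SE 0.06). In 15 of the 23, among them Orm2, Crp and the fibrinogen genes Fga, Fgb and Fgg, all 4 group means were below 3.96. That is the level that 95% of 1370 olfactory and vomeronasal receptor genes stay under, and it serves only as a rough mark of low values, since the arrays' background was not analysed here. Saa2 (0.51, SE 0.10), a relative of Saa3, and Serpina1b (0.37, SE 0.12), the other 2 that rose at 24 h, were among the 15. Serpina1b, Crp and the fibrinogen genes are named after their values were seen. Of the 5 measured relatives of Serpina3n, Serpina3a, Serpina3b, Serpina3f, Serpina3i and Serpina3j, all were below that level, and limma called 0 at either time (1 at 24 h and 0 at 72 h with an unadjusted p under 0.05). How probes of near-identical Serpina3 and Saa genes share signal was not tested.

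Upstream of these genes, the IL-6 family list held 12 measured ligands and receptors. At 24 h 2 rose and 1 fell (median log2 change 0.04), which is near the 21.8% of all genes called. At 72 h limma called 0 (3 with an unadjusted p under 0.05, median 0.06). The receptor genes Il6ra (0.52, SE 0.16, adjusted p = 0.0229) and Lifr (0.34, SE 0.08, adjusted p = 0.00574) rose at 24 h. At 72 h Il6ra was again at 0.52 (adjusted p = 0.0964) and Lifr at 0.26 (adjusted p = 0.108). Il27, a ligand gene, fell at 24 h (-0.58, SE 0.12). Il6 and Osm, named here for their roles as ligands after their values were seen, had log2 changes of -0.06 and -0.04 (Il6) and 0.04 and -0.04 (Osm) at the 2 times, none past the threshold; all 4 group means of Il6 were below 3.96.

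Of 12 JAK and STAT genes, 2 rose at 24 h: Jak2 (0.43, SE 0.09) and Ptpn11 (0.60, SE 0.07), which encodes the phosphatase SHP2. At 72 h 1 fell, Jak1 (-0.45, SE 0.07, limma adjusted p = 0.000835). The medians were 0.01 and -0.09. Of 14 further STAT3 targets, 1 rose, Il4ra (0.44, SE 0.14), and 1 fell, Vegfa (-0.34, SE 0.10), at 24 h, while 0 were called at 72 h (5 with an unadjusted p under 0.05). Of 4 other C/EBP family genes, Cebpa rose (0.37, SE 0.07) and Cebpe (-0.33, SE 0.09) and Ddit3 (-0.45, SE 0.15) fell at 24 h, and limma called 0 at 72 h (0 with an unadjusted p under 0.05). In the list of 18 IL-1, TNF and NF-kB genes, the TNF receptor genes Tnfrsf1a (0.84, SE 0.18) and Tnfrsf1b (0.31, SE 0.10) rose and Tnf, with all 4 group means below 3.96, fell (-0.20, SE 0.07) at 24 h. Limma called 21.8% of all genes at 24 h, and of these lists only that of the C/EBP family had a larger share called. That list held only 4 genes, some of them near the low mark of 3.96. The Cebpa mean was above the mark only in MCAO 24 h (4.22), and the Cebpe mean was below it only there (3.83). At 72 h Nfkbia, which encodes the NF-kB inhibitor I-kappa-B alpha and is also a glucocorticoid target, rose (0.70, SE 0.16, adjusted p = 0.0143).

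**Figure D4:**
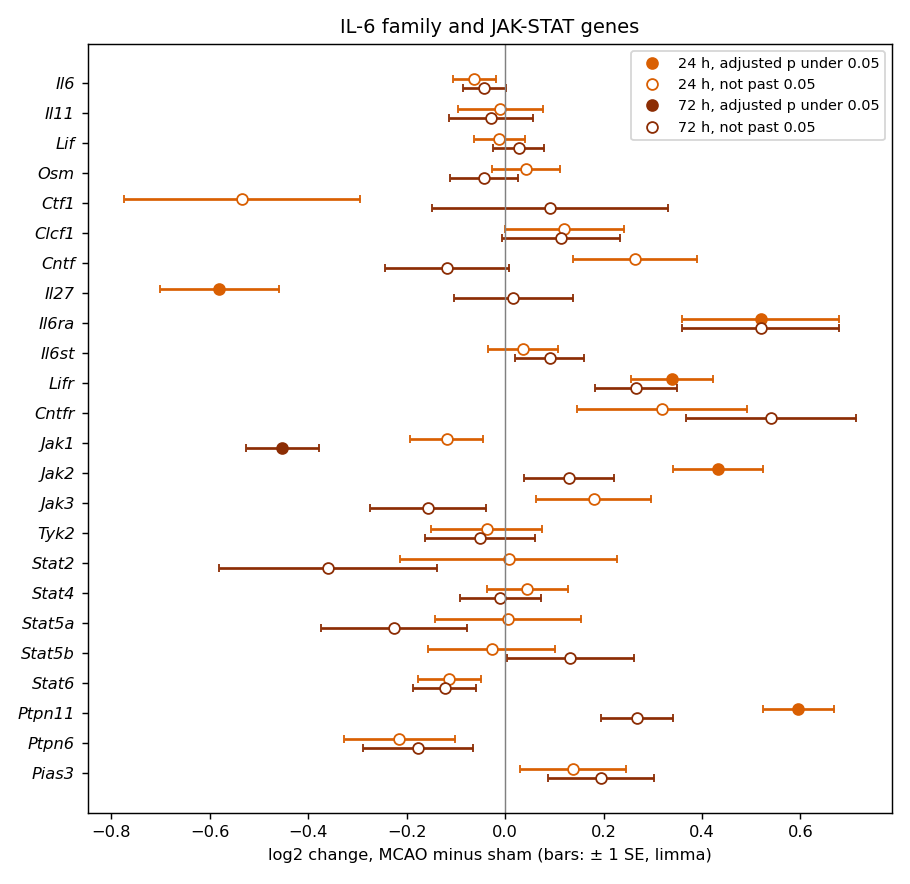
Log2 change after MCAO (horizontal axis, bars ± 1 SE from limma) of 24 IL-6 family and JAK-STAT genes at 24 h and 72 h; filled points have an adjusted p under 0.05. At 24 h Il6ra, Lifr, Jak2 and Ptpn11 are filled to the right and Il27 to the left; at 72 h only Jak1 is filled, at -0.45.

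Downstream of lipocalin 2, the list of its receptors and of iron handling had 16 genes, with 2 up and 2 down at 24 h and 1 up and 2 down at 72 h. Slc40a1, which encodes the iron exporter ferroportin, rose at 24 h (1.08, SE 0.23) and was at 0.05 at 72 h. Bmp6 (0.55, SE 0.15) rose and Tfrc, the transferrin receptor gene (-1.47, SE 0.42), fell at 24 h. The ferrireductase gene Steap3 fell at both times (-0.74 and -0.61, SE 0.15 each). Steap4 rose (0.46, SE 0.11) and Hjv, a BMP co-receptor gene, fell (-0.55, SE 0.15) at 72 h. Slc22a17, named for its role as a lipocalin 2 receptor after its values were seen, changed by 0.03 at 72 h (SE 0.15, limma adjusted p = 1). Of 7 genes of haemoglobin and haptoglobin clearance, 2 rose at 24 h: Cd163 (0.66, SE 0.14), which encodes the receptor for haptoglobin-haemoglobin complexes, and the globin gene Hbb-bs (0.41, SE 0.15), whose group means were all below 3.96. At 72 h limma called 0 of them (1 with an unadjusted p under 0.05).

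Of the 3 inhibitors closely related to Timp1, 2 were called. Timp2, named after its values were seen, did not pass (-0.09 at 24 h and -0.11 at 72 h, SE 0.13 each, limma adjusted p = 0.683 and 0.981). Timp4, the form most typical of heart, rose at 24 h (1.65, SE 0.22) and 72 h (0.93, SE 0.22), and Timp3 rose at both (1.05 and 0.61, SE 0.16 each). Adam17, the sheddase that TIMP3 inhibits, fell at 24 h (-1.01, SE 0.15). In all, 4 of 14 metalloproteinase and inhibitor genes rose and 3 fell at 24 h, and 3 rose and 0 fell at 72 h. Mmp12 was lower at 24 h (-0.53, SE 0.14) and higher at 72 h (0.52, SE 0.14), and these effects differed (1.05, limma adjusted p = 0.0100). Of 13 other lipocalin genes 4 rose and 1 fell at 24 h. Apod rose at 24 h (0.91, SE 0.24) and was the 1 gene called at 72 h (1.03, SE 0.24); it encodes apolipoprotein D.

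Genes of other sources of acute phase RNA were compared as well. Lcn2 is also a granule gene of neutrophils. Of 18 neutrophil markers 2 rose at 24 h, Retnlg (0.64, SE 0.13) and Mmp8 (0.28, SE 0.08), and at 72 h limma called 0 and 0 had an unadjusted p under 0.05. The summed linear level of the 18 ranged from 217 to 230 in sham 72 h and from 219 to 250 in MCAO 72 h, which overlap, and from 223 to 235 and 225 to 268 at 24 h. In 14 of the 18, Mmp8 included, and also S100a8, S100a9 and Ly6g (named after their values were seen), all group means lay below 3.96. A low array value need not mean an absent RNA: Ftl1, the ferritin light chain gene, averaged between 3.03 and 3.20.

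Of 12 hepatocyte markers 4 rose at 24 h, and at 72 h limma called 0 (1 with an unadjusted p under 0.05). Their sums ranged from 189 to 230 in sham 24 h, 211 to 361 in MCAO 24 h, 194 to 309 in sham 72 h and 219 to 507 in MCAO 72 h. In 7 of the 12, Alb included, all group means lay below 3.96. Ahsg, which encodes fetuin-A, went from 5.72 ± 0.39 to 6.89 ± 0.59 at 24 h (log2 change 1.18, SE 0.37, limma adjusted p = 0.0265) and from 5.97 ± 0.70 to 7.12 ± 0.97 at 72 h (adjusted p = 0.126). Of 10 fibroblast markers 5 fell at 24 h and 2 at 72 h, among them the collagen gene Col3a1 (-1.63 and -1.45, SE 0.31 each). Their median log2 change was -0.68 at both times. Not all went down: at 72 h Pdgfra (0.47, SE 0.13, limma adjusted p = 0.0585) and Dcn (0.10, SE 0.08, adjusted p = 0.799) were higher without passing. The rest were lower at 72 h. Pdgfra and Dcn are named after their values were seen. Of 13 monocyte and macrophage markers Ly6c2 (0.99, SE 0.18) and Cd14 (0.49, SE 0.17) rose at 24 h, and at 72 h limma called 0. The list's median log2 change was -0.07 at 24 h and -0.15 at 72 h, and the 4 genes with an unadjusted p under 0.05 at 72 h were all lower: Ccr2 (-0.29), Fcgr1 (-0.55), C1qa (-0.50) and C1qb (-0.52), named after their values were seen. The part of these cell types in the Lcn2 and Serpina3n changes was not tested.

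The remaining marker lists gave mixed calls. Of 9 endothelial markers 2 rose and 1 fell at 24 h and 1 rose and 1 fell at 72 h; Pecam1 was the one higher (0.27 and 0.29, SE 0.06 each) and Kdr the one lower (-0.88 and -0.68, SE 0.12 each) at both times. Of 7 adipocyte markers 2 rose at 24 h and 1 at 72 h, Pparg at both (0.68 and 0.48, SE 0.10 each). Of 10 cardiomyocyte markers 2 fell at 24 h, Myh6 (-0.33, SE 0.10) and Ryr2 (-0.18, SE 0.06), and 1 at 72 h, Ckm (-0.66, SE 0.12). Of 8 epithelial and mesothelial markers 1 rose and 2 fell at 24 h, and limma called 0 at 72 h (0 with an unadjusted p under 0.05). Of 8 platelet and mast cell markers limma called 0 at 24 h (2 with an unadjusted p under 0.05) and 0 at 72 h (1 with an unadjusted p under 0.05).

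Glucocorticoids, the stress hormones of the adrenal cortex, act together with IL-6 on many acute phase genes. Of 13 glucocorticoid-induced genes 9 rose at 24 h and 7 at 72 h, and 0 fell. Over all genes, 11.1% were called higher at 24 h and 1.17% at 72 h. The median log2 changes of the 13 genes were 1.16 and 0.67. In sham 72 h against sham 24 h limma called 0 of the 13, with a median log2 change of 0.19. There 8 had an unadjusted p under 0.05, as had 885 of all 24011 genes. The genes of the list moved in both directions there. Fkbp5 (mean 5.29 in sham 24 h and 6.00 in sham 72 h), Per1, Klf15, Zbtb16 and Sult1a1 were higher in sham 72 h. Sgk1 (6.98 and 6.61), Dusp1 (9.85 and 9.33) and Errfi1 (7.30 and 6.85) were lower. These genes are named here after their values were seen. After MCAO, Fkbp5, a cochaperone of the glucocorticoid receptor, rose at both times (3.27 and 2.25, SE 0.32 each), as did Per1, a clock gene (1.59 and 0.94, SE 0.22 each). Klf15 (1.17 and 0.68, SE 0.16 each) also rose at both. The part of glucocorticoids in the Lcn2 and Serpina3n changes was not tested.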

How the data were processed

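Heart RNA was hybridised to Affymetrix arrays as biotinylated cRNA (per the labels' protocols). The deposited table has a log2 value for each of 24973 identifiers on 24 arrays, with a median of 4.16. The authors had quantile-normalized the log2 values, judging by the columns: sorted values were identical in 23 of them. The base of the log2 scale was inferred from the highest value, 13.5. Summarization and genome build were not stated in the sources at hand, and HOMER is named in the submitters' processing notes with no role. Groups came from the titles; a free-text label that gives 24 h for samples titled 72 h was not followed. Symbols were those of the platform annotation: 24015 identifiers had 1 symbol and 958 are unnamed here. Where several identifiers shared a symbol (4 symbols), the brightest was kept, which left 24011 genes.

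Genes were fitted with limma (version 3.58.1, R version 4.3.3): lmFit and eBayes on the 4 group means of all 24 arrays together, which leaves 20 residual degrees of freedom, and Benjamini-Hochberg adjustment at 0.05. The fit was tested on simulated data. The median log2 change of all genes was 0.01 at 24 h and 0.00 at 72 h. Arrays correlated with the mean of the rest of their group at 0.971 to 0.991 in MCAO 24 h and 0.985 to 0.997 in the other groups, so the 24 h comparison has noisier arrays. The number of arrays limits the precision. Covariation with Lcn2 used deviations from group means. The 10 genes, the 21 lists (261 genes, 244 measured) and the tests were chosen with earlier results of these data known. Named list genes were up to 4 per list and MCAO comparison with the smallest p among those called; others are said to be named after their values were seen. Alternatives were another prior, repeated quantile normalization, median centring, other handling of identifiers, a filter on dim genes, array weights, a replicate block, the groups compared alone, and arrays left out. Protein sequences were not used here.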

Additional observations from a re-analysis of the deposited data

Results flagged for a closer look

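In groups of 6 arrays, a single array was noted when its gap to the nearest other array exceeded 0.625 of the group's range, the 95% critical value of Dixon's test. Chance gives about 1 in 20 such groups; here 8 of 40 were noted. In MCAO 24 h, Saa3 was 6.26 in replicate 3, with the next array at 3.95, and Cebpb was 7.37 in replicate 5, with the next at 6.87. In sham 24 h, Hp was 5.13 in replicate 1 (next 4.43) and Timp1 was 6.66 in replicate 4 (next 4.47). Replicate 5 of sham 24 h was apart in both C/EBP genes, Cebpb at 7.07 (next 6.46) and Cebpd at 4.47 (next 4.15). In sham 72 h, Timp1 was 6.64 in replicate 2, with the next array at 4.21. In MCAO 72 h, Osmr was 7.89 in replicate 4, below the next array at 8.57.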

How the results depend on the processing

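Counts below are of limma calls at an adjusted p under 0.05. For MCAO against sham at 24 h, the main counts were 3 of the 10 genes and 5237 of all genes; array weights gave 0 and 3259, and a fit of only the groups compared gave 2194 of all genes. At 72 h the main counts were 1 and 565. There a trended and robust prior gave 2 of the 10 genes, a filter on dim genes (which left out Saa3) gave 2, array weights gave 3 and 1905 of all genes, the groups compared alone gave 1410 of all genes, and leaving out MCAO 24 h arrays 5 and 6 gave 2 and 1103. That last setting raised the count for the difference between the times from 430 to 1079 genes. For sham 72 h against sham 24 h, 5 genes became 27 with array weights, 1 with the replicate block and 1 with the groups compared alone. For MCAO 72 h against MCAO 24 h, 2496 genes became 1584 with the dim filter, 1408 with array weights and 848 with the groups compared alone. In the covariation with Lcn2, 0 of the 9 genes became 1, Serpina3n, with array weights and 1 without MCAO 24 h arrays 5 and 6.

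Leaving out 1 array at a time gave 3 to 4 of the 10 genes and 4234 to 5867 of all genes at 24 h, and 1 to 2 of the 10 and 393 to 821 of all at 72 h. It gave 197 to 1012 genes for the difference, 1 to 6 between the sham groups and 1615 to 3455 between the MCAO groups, with 0 of the 10 in each, and 0 to 1 of 9 in the covariation. No direction of a called value was reversed in any setting run. With the replicate number as a block, 3 of the 10 genes were called at 24 h, 1 at 72 h and 0 in the other comparisons. Same-numbered arrays did not deviate together: over 36 pairs the correlation ranged from -0.229 to 0.151, with 3 above 0.1, and 2 of the 24 arrays correlated best with their own number.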
